A study of Homo sapiens with 8 samples.

Results

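Long non-coding RNAs are transcripts that are not translated into protein, and their gene symbols often record how they were recognised. The genes described here were chosen by symbol alone: those that begin with LINC or SNHG, those that end in -AS1, -AS2, -DT or -IT1, and microRNA host genes written MIR, a number and HG. The rule found 497 of the 20038 genes that a probe with 1 symbol measured, and 595 of 30105 such probes. Of these genes 253 were LINC, 171 -AS1, 33 -DT, 16 SNHG, 9 microRNA hosts, 8 -IT1 and 7 -AS2. RefSeq lists 490 of them as lncRNA and 4 as antisense RNA, and 3 were not found in its table. Nearly all members are thus annotated as non-coding, but the rule leaves out long non-coding RNAs with other names, such as MALAT1 and H19. A single probe measured 409 of them (82.29%), and no member had more than 3 probes.

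Cells in culture were A2058, an established melanoma line, grown in 8 wells that were each measured on an Illumina HT-12 expression array. All 8 wells carried an empty vector plasmid. TGFβ1, a ligand that activates SMAD transcription factors through its receptors, was given to 4 wells. The other 4 are titled untreated and are termed vehicle here. The study's methods give 24 h in serum-free medium at 5 or 10 ng/ml, without assigning a dose to a well, and state that wells came from the same day and passage. The p-values therefore rest on how far wells of 1 line differed among themselves. The values were log2 intensities centred on each gene's mean over the arrays, so 0 is that gene's own average. They carry differences and no level, and neither the identity of the cells nor whether a non-coding RNA was above background can be read from them. Of 10 SMAD targets listed to check the treatment, 9 were measured, and all 9 changes were above 0 with a median of 0.86. By limma at an adjusted p under 0.05, 7 were higher with TGFβ1 (77.78%, against 3.03% of all genes). The list was drawn up with earlier results of these data known, so it is no independent check.

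LINC is a general label for RNA genes that lie between protein-coding genes. An -AS gene is transcribed from the strand opposite the gene it is named after, a -DT gene runs away from that gene's start, and an -IT gene lies inside its intron. SNHG genes and microRNA host genes are transcribed as long RNAs that contain small RNAs: small nucleolar RNAs (snoRNAs), most of which guide the chemical modification of ribosomal RNA, are cut from the introns of the former, and microRNAs, which repress target mRNAs, are processed from the latter. Array probes report the long RNA and not the small RNAs made from it.

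Few of these genes differed between TGFβ1 and vehicle, and the differences were small. At an adjusted p under 0.05 (limma, Benjamini-Hochberg over all 20038 genes, here termed called), 4 of 497 were higher with TGFβ1 (0.8%, against 3.03% of all genes) and 6 were lower (1.21%, against 2.67%). In either direction the share was 2.01%, against 5.7%. The 4 that were higher were SERTAD4-AS1, DLGAP1-AS1, LINC00205 and LINC00623, and the 6 that were lower were SLCO4A1-AS1, LINC01293, SNHG15, SNHG8, LINC01315 and LINC01278. The values of the TGFβ1 wells lay entirely above or below those of the vehicle wells for each of these 10. Their choice by p-values from the same wells favours such a separation, so it adds no support. The count of 4 was 2 without vehicle replicate 2 and 2 without vehicle replicate 3.

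**Figure D1:**
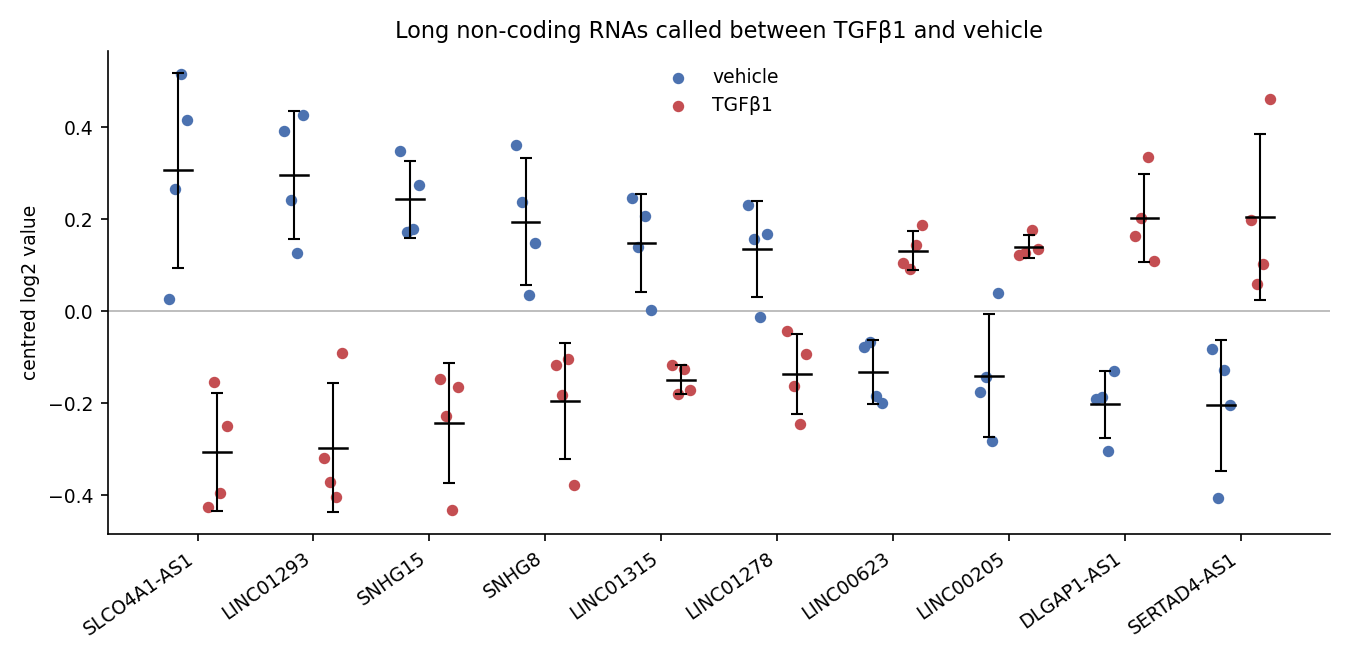
Centred log2 value (vertical axis) in each vehicle well (blue) and TGFβ1 well (red) for the 10 called genes, ordered by change, with bars at the mean and SD of 4 wells. The groups do not overlap for any of the 10, which their choice by calls favours. The changes run from −0.61 for SLCO4A1-AS1 to 0.41 for SERTAD4-AS1.

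Other measures, of which SAM was the stricter and the rest looser, gave the same order of shares. Groups that did not overlap were seen for 29 members (5.84%), against 10.3% of all genes: 13 members were higher, against 5.21% of all genes, and 16 lower, against 5.07%. An unadjusted p under 0.05 was reached by 36 members (7.24%), against 15.6%. SAM, a permutation-based test used by the study, called 6 members (1.21%, 2 higher and 4 lower), against 3.77%. A change past 0.25 on the log2 scale in either direction was measured for 12 members (2.41%), against 7.47%. As a set the members were spread evenly about 0, with 257 changes above and 240 below and a median of 0.0037, where that of all genes was −0.0013. Between the 5th and 95th percentiles their changes ran from −0.16 to 0.14, and those of all genes from −0.22 to 0.21.

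The precision was close to that of all genes. The distance from a change to either end of its 95% interval had a median of 0.16 for the members and 0.155 for all genes, and the median SD between wells was 0.097 in vehicle and 0.10 in TGFβ1, against 0.094 and 0.096. For 489 members (98.39%) the whole interval lay within 0.5 of zero on the log2 scale, against 95.34% of all genes. Whether these RNAs lie nearer to background than other genes cannot be told from centred values. Of 42 measured long non-coding RNAs outside the rule, 1 changed by more than any member: CASC15 rose by 2.52, where the largest change of a member was that of SLCO4A1-AS1.

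**Figure D2:**
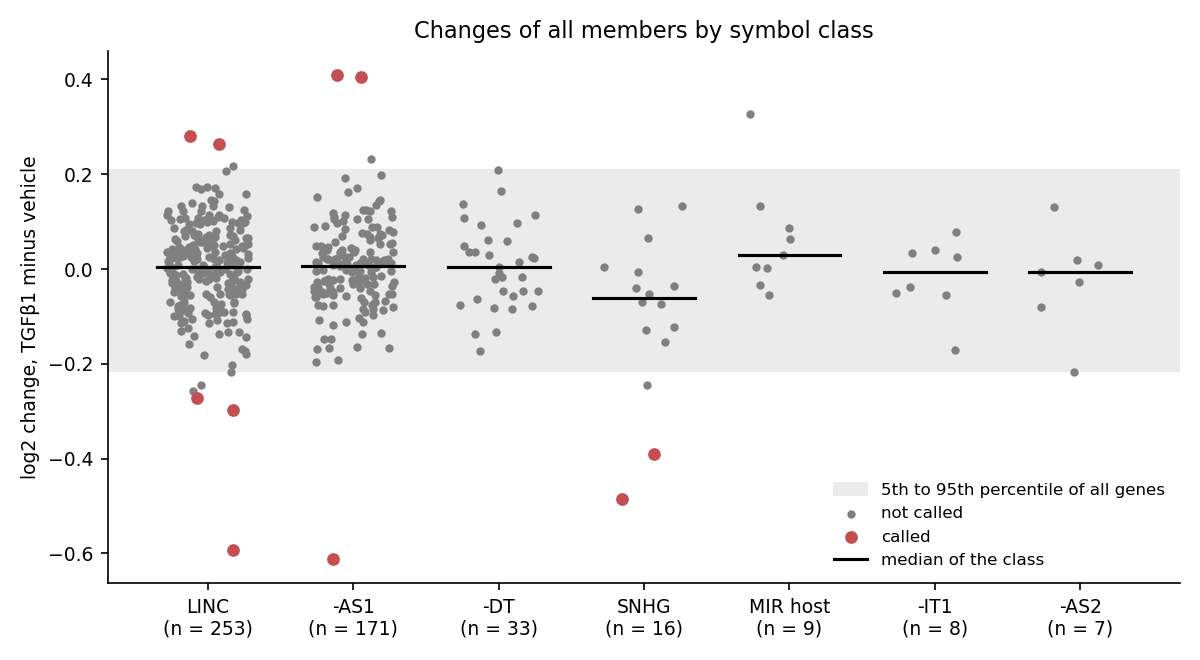
Log2 change, TGFβ1 minus vehicle, of each of the 497 genes by symbol class, with called genes in red, the class median as a line and the range from the 5th to the 95th percentile of all genes in grey (−0.22 to 0.21). All 10 called genes lie outside the grey range, and the SNHG class alone has a median (−0.061) visibly below 0.

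The snoRNA host genes had the highest share of calls among the classes, in a class of 16 genes. SNHG15 and SNHG8 were lower with TGFβ1, 2 of 16 (12.5%, against 2.67% of all genes), and no SNHG gene was called higher. The class median was −0.061, with 12 of 16 changes below 0, and without the 2 called genes it was −0.047 with 10 of 14 below 0. In RefSeq SNHG15 contains SNORA9 and SNHG8 contains SNORA24, both guides of the kind that direct pseudouridylation.

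SNHG15 was 0.348, 0.172, 0.179 and 0.273 in vehicle wells 1 to 4 and −0.148, −0.228, −0.431 and −0.165 in TGFβ1 wells 1 to 4. The lowest vehicle well lay above the highest TGFβ1 well. The change was −0.49 ± 0.074 (SE, 4 against 4 wells, adjusted p = 0.00106), which is 1.40-fold lower. Both of its probes fell when all probes were fitted, by 0.57 (adjusted p = 0.000308) and by 0.40 (adjusted p = 0.0122). The probe with the larger change spans a splice junction, and the part on its upstream exon is in capitals, since such a probe reads spliced RNA.
SNHG15: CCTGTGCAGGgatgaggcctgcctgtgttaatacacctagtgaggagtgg

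SNHG8 was 0.361, 0.237, 0.0349 and 0.147 with vehicle and −0.116, −0.181, −0.104 and −0.378 with TGFβ1. Vehicle well 3 came nearest to the treated wells. Its change was −0.39 ± 0.082 (adjusted p = 0.0113), or 1.31-fold lower.

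SNHG12 followed in size. RefSeq places 4 snoRNA genes in it, SNORD99, SNORA61, SNORA44 and SNORA16A. It was −0.102, 0.198, 0.215 and 0.179 with vehicle and −0.0602, −0.169, −0.136 and −0.124 with TGFβ1, so vehicle well 1 sat among the treated wells. The change of −0.24 ± 0.075 was not called (adjusted p = 0.0817). Without vehicle replicate 1 it was −0.32 (adjusted p = 0.00914), and without any other array −0.27 to −0.21 (adjusted p from 0.103 to 0.205).

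The other 13 host genes in this class were not called, and their changes ran from −0.15 to 0.13. SNHG6, the host of SNORD87, changed by −0.15 with groups that did not overlap (adjusted p = 0.233), and SNHG20, in which RefSeq places no snoRNA, changed by 0.13 in the same manner (adjusted p = 0.328). SNHG1, whose RefSeq span holds 9 snoRNA genes, changed by −0.036 with a 95% interval from −0.21 to 0.14. The 3 probes of SNHG7 gave −0.24, 0.25 and −0.23, and none of these passed over all probes (adjusted p = 0.137, 0.207 and 0.324), so its gene value of −0.074 is a mean of probes that point in opposite directions.

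**Figure D3:**
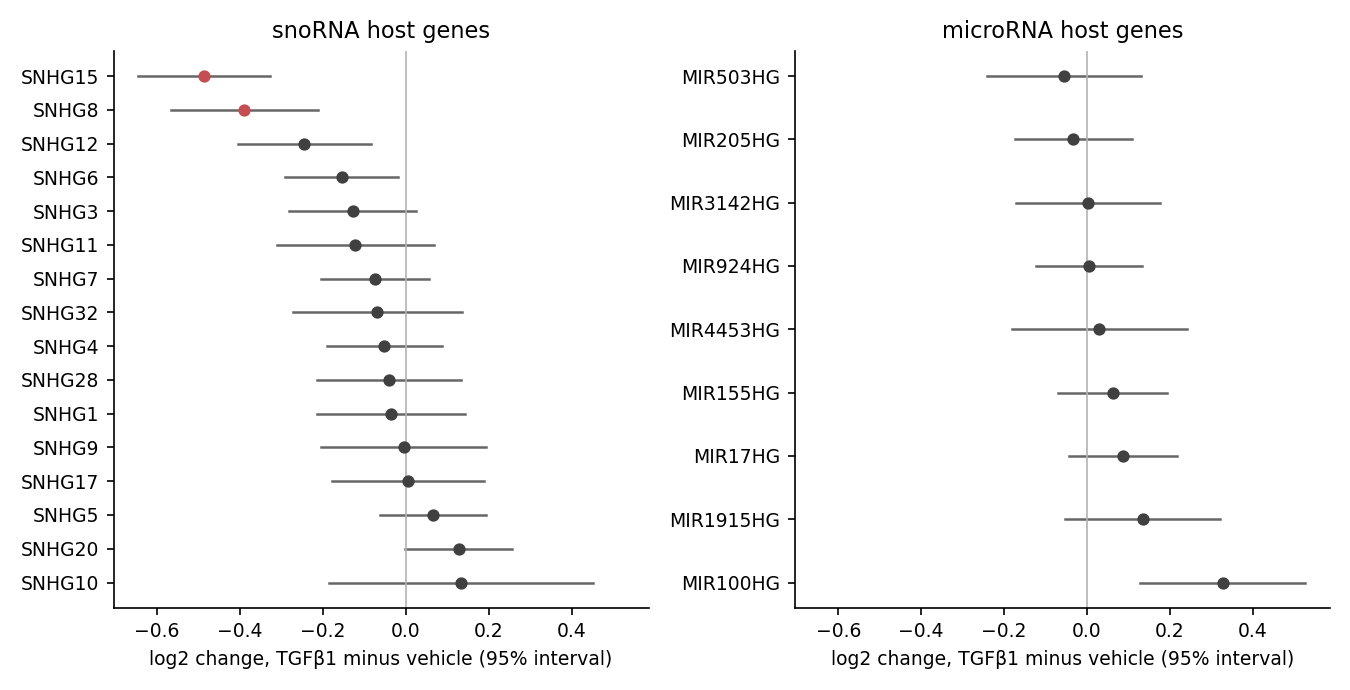
Log2 change (points) with its 95% interval (lines) for the 16 snoRNA host genes, left, and the 9 microRNA host genes, right, with called genes in red. SNHG15 (−0.49), SNHG8 (−0.39), SNHG12 (−0.24) and SNHG6 (−0.15) have intervals below 0, and MIR100HG (0.33) is the sole microRNA host with an interval that leaves out 0.

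Other genes that carry snoRNAs in their introns, listed without regard to an SNHG name, were compared beside them. Of 42 listed, 37 were measured, 1 was higher and 3 were lower (10.81%, against 5.7% of all genes), and the median change was −0.042, against −0.0013. NOP56, a core protein of the box C/D snoRNA particle, fell by 0.41 (adjusted p = 0.00402), TNPO2, a nuclear import receptor, by 0.44 (adjusted p = 0.0126), and RPL13, a ribosomal protein of the large subunit, by 0.27 (adjusted p = 0.0409). DANCR rose by 0.48 (adjusted p = 0.00539). GAS5 (−0.034) and ZFAS1 (−0.021), which are snoRNA hosts with little coding capacity, were not called. Spliced host RNAs of this kind are known substrates of nonsense-mediated decay. Of 20 listed decay factors 17 were measured. By limma or by SAM 0 were called, against 5.7% and 3.77% of all genes. At an unadjusted p under 0.05 there was 1 (5.88%, against 15.6% of all genes), and the median change was 0.027. Whether decay of the host RNAs changed was not tested.

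None of the 9 microRNA host genes was called by limma or by SAM, against 5.7% and 3.77% of all genes. At an unadjusted p under 0.05 there was 1 (11.11%, against 15.6% of all genes). The changes of the 9 hosts had a median of 0.029, and 7 of 9 were above 0. MIR100HG, in RefSeq the host of the microRNAs miR-100, let-7a-2, miR-125b-1 and miR-10526, had the largest. It was −0.318, −0.0596, −0.208 and −0.069 with vehicle and −0.0562, 0.231, 0.386 and 0.0931 with TGFβ1. The groups were separate, but TGFβ1 well 1 lay just above the highest vehicle well. The change of 0.33 ± 0.092 had a 95% interval from 0.13 to 0.53 and missed the threshold (adjusted p = 0.0588). Leaving out 1 array gave 0.25 to 0.40, with adjusted p from 0.0211 without TGFβ1 replicate 1, the sole case in which it was called, to 0.163 without vehicle replicate 1.

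The mature 5p microRNAs of this host, from RefSeq (GRCh38.p14, chromosome 11, minus strand), are shown because the long RNA that was measured is their precursor. Capitals mark the seed, bases 2 to 8, which pairs with target mRNAs, and the 3 seeds differ from each other.
hsa-miR-100-5p: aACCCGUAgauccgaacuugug
hsa-let-7a-5p: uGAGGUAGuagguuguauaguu
hsa-miR-125b-5p: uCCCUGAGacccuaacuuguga

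The arrays do not read these microRNAs. Among proteins that process microRNAs, all 18 listed genes were measured, 1 was higher and 1 lower (11.11%, against 5.7% of all genes). LIN28B, which blocks the maturation of let-7 precursors, was 0.349, 0.197, 0.205 and 0.051 with vehicle and −0.273, −0.143, −0.108 and −0.277 with TGFβ1, a change of −0.40 ± 0.073 (adjusted p = 0.00415). PRKRA, a partner protein of DICER1, changed by 0.47 ± 0.10 (adjusted p = 0.0136), although its groups overlapped.

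The remaining microRNA hosts changed by −0.056 to 0.13. MIR17HG, which carries the miR-17-92 cluster of 6 microRNA genes, changed by 0.087 (adjusted p = 0.587, 95% interval −0.044 to 0.22). MIR155HG, the host of miR-155, changed by 0.062 (adjusted p = 0.744), and MIR3142HG, which includes miR-146a, by 0.0016 (adjusted p = 0.997). The interval for MIR3142HG ran from −0.17 to 0.18, so a change of that size in either direction was not resolved.

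Among the 253 LINC genes, 2 were higher and 3 lower (1.98%, against 5.7% of all genes), with a median change of 0.0039. LINC01293 had the largest change. It was 0.391, 0.241, 0.127 and 0.427 with vehicle and −0.32, −0.37, −0.404 and −0.0917 with TGFβ1. The treated wells were all below 0 and the vehicle wells all above it, and the change was −0.59 ± 0.085 (adjusted p = 0.000637), or 1.51-fold lower. RefSeq now holds this symbol as a synonym of LINC01291 on chromosome 2, so the array's name for it is an older one. LINC01315 fell by 0.30 ± 0.065 (adjusted p = 0.0134), from 0.00213 to 0.245 with vehicle to −0.181 to −0.116 with TGFβ1.

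LINC00205 was −0.175, −0.143, −0.282 and 0.0402 with vehicle and 0.122, 0.127, 0.177 and 0.135 with TGFβ1. The treated wells lay close together, and vehicle well 4 stood nearest to them. Its change was 0.28 ± 0.070 (adjusted p = 0.0298), and it kept the call without vehicle replicate 4 alone: leaving out any other array gave 0.23 to 0.29 with adjusted p from 0.0512 to 0.0916.

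LINC01278 and LINC00623 rest on probes that did not move alike. LINC01278 was 0.231, 0.157, −0.0123 and 0.169 with vehicle and −0.0439, −0.163, −0.245 and −0.0928 with TGFβ1, a change of −0.27 ± 0.070 (adjusted p = 0.0348). Over all probes 1 of its 2 probes passed (−0.37, adjusted p = 0.0253) and the other did not (−0.17, adjusted p = 0.378). The call was lost without vehicle replicate 1, 2 or 4 and without TGFβ1 replicate 2 or 3, with adjusted p from 0.0907 to 0.108.

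LINC00623 changed by 0.26 ± 0.060 (adjusted p = 0.0167) as the mean of 3 probes. A single probe carried it: −0.238, −0.422, −0.419 and −0.334 with vehicle and 0.456, 0.24, 0.252 and 0.464 with TGFβ1, a change of 0.71 (adjusted p = 1.08e-05 over all probes). The other probes gave 0.066 (adjusted p = 0.875) and 0.019 (adjusted p = 0.978). What that probe hybridises to beside LINC00623 was not tested. Without vehicle replicate 3 or 4 the mean of the 3 probes was not called (adjusted p = 0.0522 and 0.0567).

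**Figure D4:**
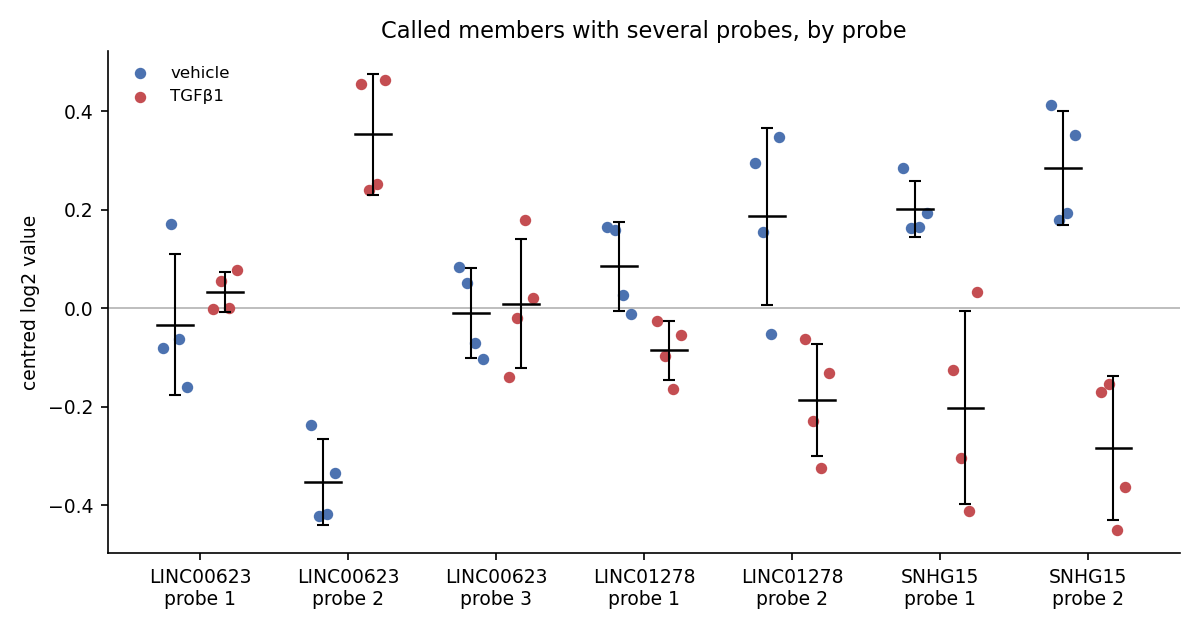
Centred log2 value in each vehicle well (blue) and TGFβ1 well (red) for every probe of the 3 called genes that have more than 1 probe, with bars at the mean and SD of 4 wells. Probe 2 of LINC00623 separates the groups (change 0.71) while the other 2 probes of that gene overlap, and both SNHG15 probes separate them (−0.40 and −0.57).

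Probe sequences of 50 bases follow for 4 called genes, since in each of them 1 probe decides the call. They were read from the study's list of probes that its own test found altered by TGFβ1, as was that of SNHG15. Those of the other 5 called genes were not at hand. For DLGAP1-AS1 and SLCO4A1-AS1 the strand annotated for the probe is the RefSeq strand of the non-coding gene (plus on chromosome 18 and minus on chromosome 20). For LINC00623 the annotated strand is minus and that of RefSeq plus, from builds that may differ, so orientation there is not settled.
SLCO4A1-AS1: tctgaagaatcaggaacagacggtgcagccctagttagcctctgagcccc
LINC01293: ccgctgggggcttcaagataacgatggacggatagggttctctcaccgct
DLGAP1-AS1: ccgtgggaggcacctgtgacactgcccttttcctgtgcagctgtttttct
LINC00623: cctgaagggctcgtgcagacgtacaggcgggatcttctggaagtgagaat

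Among the 171 -AS1 genes, 2 were higher and 1 was lower (1.75%, against 5.7% of all genes), with a median of 0.0069. None of the 33 -DT, 8 -IT1 or 7 -AS2 genes was called by limma or by SAM, against 5.7% and 3.77% of all genes. At an unadjusted p under 0.05 there were 3, 1 and 1 of them (9.09%, 12.5% and 14.29%, against 15.6% of all genes).

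SLCO4A1-AS1, antisense to a gene for an organic anion transporter, had the largest change of any member. It was 0.027, 0.267, 0.515 and 0.415 with vehicle and −0.426, −0.153, −0.396 and −0.248 with TGFβ1. Vehicle well 1 was lower than the other 3 vehicle wells and still above every treated well. The change was −0.61 ± 0.099 (adjusted p = 0.00169), or 1.53-fold lower. SLCO4A1 itself was 0.183, 0.233, 0.218 and −0.057 with vehicle and −0.00945, −0.241, −0.359 and 0.0334 with TGFβ1. Its groups overlapped and its change of −0.29 was not called (adjusted p = 0.109).

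SERTAD4-AS1 was −0.0819, −0.406, −0.127 and −0.204 with vehicle and 0.197, 0.0587, 0.102 and 0.461 with TGFβ1. All treated wells lay above 0 and all vehicle wells below it. The change was 0.41 ± 0.094 (adjusted p = 0.0184), or 1.33-fold higher, and without vehicle replicate 2, the lowest well, it was 0.34 (adjusted p = 0.0617). SERTAD4, which encodes a SERTA domain protein, was −0.249, −0.128, −0.0783 and −0.277 with vehicle and 0.207, 0.0372, 0.269 and 0.22 with TGFβ1, a change of 0.37 ± 0.070 (adjusted p = 0.00614). It was the only pair of a member and its partner in which both genes were called.

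The RefSeq promoter windows of these 2 antisense genes, 250 bases before to 50 bases after the start, are shown because their genes had the largest changes in each direction. SERTAD4-AS1 lies at chr1:210233836-210234135 and SLCO4A1-AS1 at chr20:62666572-62666871 (GRCh38.p14, both minus strand). Capitals mark TGANTCA, the letters bound by AP-1 factors, in the former, 48 bases before the start, and CACGTG, an E-box of the type bound by MITF and MYC, in the latter, 126 bases before it.
SERTAD4-AS1: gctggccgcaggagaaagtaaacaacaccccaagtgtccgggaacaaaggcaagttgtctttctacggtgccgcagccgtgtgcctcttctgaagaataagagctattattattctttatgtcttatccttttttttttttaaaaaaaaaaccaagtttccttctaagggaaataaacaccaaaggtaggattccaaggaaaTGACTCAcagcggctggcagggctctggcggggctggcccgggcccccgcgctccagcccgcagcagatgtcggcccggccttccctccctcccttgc
SLCO4A1-AS1: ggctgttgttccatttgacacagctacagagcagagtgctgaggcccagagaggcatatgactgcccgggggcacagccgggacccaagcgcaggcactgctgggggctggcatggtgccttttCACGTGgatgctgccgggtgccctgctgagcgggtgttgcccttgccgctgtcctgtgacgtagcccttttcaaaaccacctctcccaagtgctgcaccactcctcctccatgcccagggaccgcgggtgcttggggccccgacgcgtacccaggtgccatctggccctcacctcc

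Such matches are common. TGANTCA, whose letters read the same on both strands, was in 7.71% of 35116 RefSeq promoter windows, in 8.35% of the 419 windows found for 378 members, and in 1 of 9 windows of called members. CACGTG, also a palindrome, was in 7.26% of all windows, in 8.83% of the members' windows and in 3 of 9 windows of called members, those of SLCO4A1-AS1, LINC01315 and LINC01278. GTCTAGAC, a palindromic SMAD motif, was in 0.2% of all windows and in 0 of those of members. None of the 3 motifs contains another, and whether any factor occupies these sites was not measured.

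DLGAP1-AS1 was −0.191, −0.186, −0.303 and −0.13 with vehicle and 0.163, 0.202, 0.335 and 0.109 with TGFβ1. The 2 groups were well separated. The change was 0.40 ± 0.067 (adjusted p = 0.00192), or 1.32-fold higher, with a 95% interval from 0.26 to 0.55. Its namesake DLGAP1, a scaffold protein of synapses, has no value in these data. The nearest measured protein-coding gene that precedes it in RefSeq order on chromosome 18 is TGIF1, a corepressor of SMAD-driven transcription. TGIF1 was −0.142, −0.17, −0.235 and −0.173 with vehicle and 0.191, 0.202, 0.0796 and 0.248 with TGFβ1, a change of 0.36 ± 0.059 (adjusted p = 0.00199).

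Neighbours were looked up in this way, after the values had been seen, for 9 called members and MIR100HG. LINC01293 had no RefSeq place under its own symbol. Of 23 neighbours, overlapping partners included, 5 were called, 4 higher and 1 lower (21.7%, against 5.7% of all genes), and the 18 others changed by −0.29 to 0.21. SERTAD4 and TGIF1 are 2 of the 5. SPIN4, a chromatin reader of the spindlin family that lies beside LINC01278 on the X chromosome, fell by 0.37 ± 0.073 (adjusted p = 0.00673). COL18A1, which encodes a basement membrane collagen and follows LINC00205 on chromosome 21, rose by 0.24 ± 0.060 (adjusted p = 0.0303). UBASH3B, a phosphatase that restrains receptor signalling and lies beside MIR100HG on chromosome 11, rose by 0.56 ± 0.060 (adjusted p = 4.59e-05). Beside SNHG15, MYO1G and CCM2 changed by 0.12 and 0.019, and beside SNHG8, PRSS12 and NDST3 changed by 0.12 and 0.13, and none of these 4 was called.

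Genes named after a partner allow the RNA and the partner to be set side by side. Of 219 members with an -AS, -DT or -IT suffix, 207 had a partner of that name with a value, and 14 partners were called (6.76%, 8 higher and 6 lower), a share near the 5.7% of all genes. In 1 of the 14 the non-coding gene was called as well, that of SERTAD4. In the other 13 the partner changed by 0.23 to 0.78 in size while the non-coding gene changed by −0.14 to 0.12. In 13 of 13 the partner's change lay outside the 95% interval of the non-coding gene. These pairs were picked because the partner was called and the non-coding gene was not. That choice nearly fixes such an outcome in advance, so no conclusion is drawn from it. The difference within each pair was not tested.

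TNFRSF14, a receptor of the TNF receptor family, fell by 0.78 ± 0.080 and TNFRSF14-AS1 changed by −0.024 (interval −0.16 to 0.11). CREB3L2, a membrane-bound transcription factor, rose by 0.60 ± 0.064 and CREB3L2-AS1 changed by −0.040 (interval −0.18 to 0.099). FUT8, the enzyme that adds core fucose to glycoproteins, rose by 0.54 ± 0.068 and FUT8-AS1 changed by 0.047 (interval −0.11 to 0.20). These 3 had the largest partner changes of the 13 pairs chosen by their calls, so no conclusion is drawn from the contrast. Whether the antisense signals were above background cannot be told from centred values.

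ASAP1, an ARF GTPase-activating protein, fell by 0.51 and ASAP1-IT1, from its intron, changed by −0.051. JARID2, a subunit of Polycomb complexes, rose by 0.47 against 0.11 for JARID2-AS1. CDKN2B, a cyclin-dependent kinase inhibitor long known as a TGFβ target, rose by 0.29 against 0.066 for CDKN2B-AS1. The intronic RNA of ASAP1 lies in the same transcription unit as its host. Its interval, −0.22 to 0.12, did not include the host's change. Whether its signal was above background cannot be told from centred values.

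Divergent genes share a start region with their partners, and 2 of them had a called partner. LY6E, a membrane protein anchored by a lipid, fell by 0.42 and LY6E-DT changed by −0.14. DHX33, an RNA helicase, fell by 0.37 and DHX33-DT changed by −0.0091. The other called partners were KRT10 (0.38 against 0.12 for KRT10-AS1), FOXD2 (0.35 against −0.022), VLDLR (−0.31 against −0.052), PCED1B (0.29 against 0.074) and PRKCQ (−0.23 against −0.045).

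Over the 207 pairs, 112 had changes of the same sign. Across pairs, which share the same 8 arrays, the correlation was weak (Pearson's r 0.20, Spearman's rho 0.16), and without SERTAD4 and SLCO4A1 r was 0.12. Among the 14 pairs with a called partner, 12 had the same sign.

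**Figure D5:**
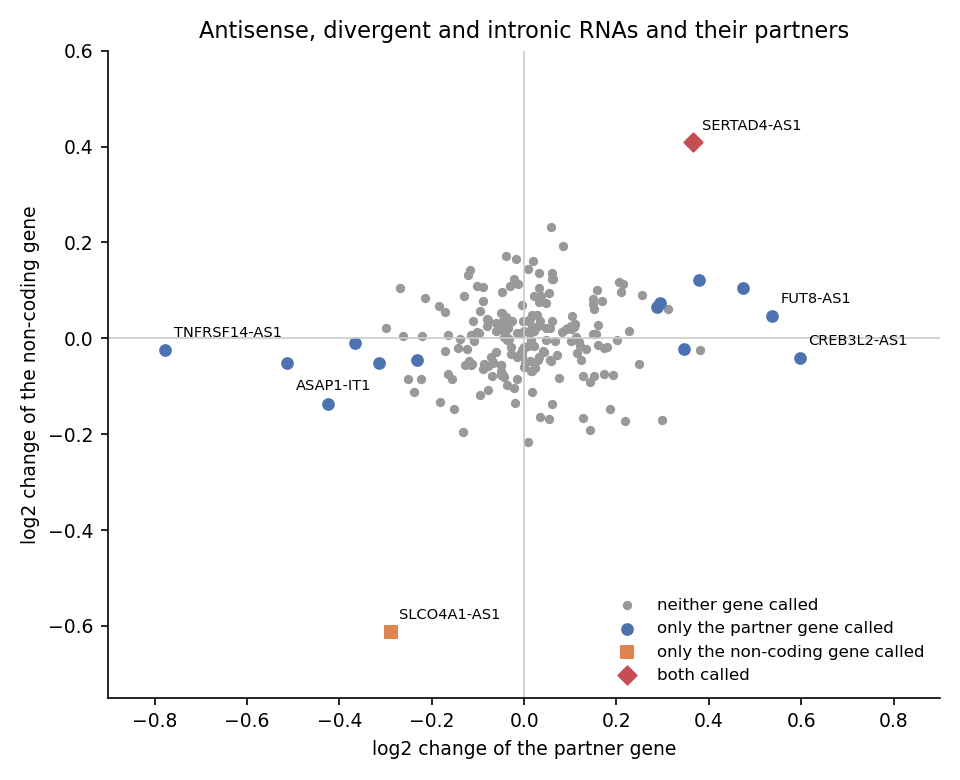
Log2 change of the non-coding gene (vertical axis) against that of the partner it is named after (horizontal axis) for 207 pairs, by which of the genes was called. The 13 pairs with only the partner called lie in a flat band, with non-coding changes of −0.14 to 0.12 over partner changes from −0.78 to 0.60. The choice of these pairs by their calls favours such a band.

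Long non-coding RNAs whose symbols the rule does not take were compared from a list of 74, of which 42 were measured. Of these, 2 were higher and 2 lower (9.52%, against 5.7% of all genes), with a median change of −0.032. H19, an imprinted RNA, was 0.183, 0.483, 0.199 and 0.295 with vehicle and −0.282, −0.395, −0.463 and −0.0194 with TGFβ1, a change of −0.58 ± 0.096 (adjusted p = 0.00207). BDNF-AS fell by 0.27 (adjusted p = 0.0295), and CASC15 and DANCR were the ones that rose. MALAT1 (0.089) and MEG3 (0.032) were not called.

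Some members that were not called lay near the threshold. Of the 487 members that were not called, 19 had groups that did not overlap, 9 higher and 10 lower. That is 3.9%. The 10.3% of all genes includes called ones, so the 2 shares are not alike and no conclusion is drawn from them. MIR100HG, described above, changed by 0.33 (adjusted p = 0.0588), more in size than the called LINC01315, LINC00205, LINC01278 and LINC00623. SNHG12 changed by −0.24 (adjusted p = 0.0817). LINC01838 changed by −0.20 (adjusted p = 0.0707), DLGAP4-AS1 by 0.23 (adjusted p = 0.0724) and FAM167A-AS1 by 0.19 (adjusted p = 0.0976). The changes of LINC01838, DLGAP4-AS1 and FAM167A-AS1 were smaller in size than those of any called member.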

How the data were processed

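Values were taken for 8 arrays, 4 of TGFβ1 and 4 of vehicle, grouped by sample title. The deposited values are log2 intensities of 47315 probes, which the authors, per their methods, had normalised by quantiles and stripped of control probes, and had then centred on the mean of each gene and array. The log base is known from the methods only. The mean of every probe over the arrays was 0 within 1.57e-07 and array medians ran from −0.00504 to −0.00147, so no background correction, detection filter or level was possible, and the number of arrays limits the precision.

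Symbols came from the platform annotation, brought up to date through RefSeq: 30066 probes by gene identifier and 18 by accession, with 21 kept as given. Probes with several symbols (8) or none (17202) were left out. A gene's value was the mean of its probes. The 2 groups were compared in R 4.3.3 with limma 3.58.1 (lmFit, eBayes), without covariate or block, adjusted over 20038 genes, or over all probes where a probe is named. The scripts were tested on simulated data. Python 3.11.15 with numpy 2.4.6, matplotlib 3.10.9 and pandas 2.3.3 made the tables and plots.

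The members, lists and tests were chosen with earlier results of these data known. Named were all called members, the 10 with the largest changes, the SNHG and microRNA host genes, and called genes of the lists. LINC01838, DLGAP4-AS1 and FAM167A-AS1 were also named, for adjusted p near the threshold. GAS5, ZFAS1, MALAT1 and MEG3 were named from the lists though not called. Pairs with a called partner and some neighbours were named as well. Alternatives were a replicate block, leaving out each array, quantile normalisation again, a common median, array weights, a robust variance prior, the probe with the largest SD, symbols as given, a threshold of 0.01, and SAM, the authors' method, coded anew at a median of 10 false positives. Arrays of the siRNA experiment were not used here.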

Additional observations from a re-analysis of the deposited data

Results flagged for a closer look

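SNHG12 in vehicle replicate 1 stood apart from the other vehicle wells. Its value there was −0.10, where the other 3 vehicle wells lay between 0.179 and 0.215, and the gap was 0.887 of the range of the 4 wells, past the 95% critical value of Dixon's test. It was 1 of 66 groups of 4 wells examined, and chance alone flags about 1 in 20.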

How the results depend on the processing

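Over 17 alternatives none of the 10 called members changed direction. Of the 23 named members that were not called, 8 changed sign in 22 values, between −0.083 and 0.077 (MIR3142HG, MIR4453HG, MIR503HG, MIR924HG, SNHG1, SNHG9, SNHG17 and SNHG28), so the counts of SNHG and microRNA host changes above or below 0 depend on the setting. DLGAP1-AS1, LINC01293, SLCO4A1-AS1 and SNHG15 kept their call in all 17, LINC01315 in all but the threshold of 0.01, and SNHG8 in all but that threshold and SAM, so 6 of the 10 calls held whichever array was left out. Without 1 array each, the count of members called higher ran from 2 to 4, that called lower from 5 to 6 and that of all genes called from 883 to 1169. At 0.01 there were 1 higher, 3 lower and 617 genes in all, and by SAM 2 higher, 4 lower and 756 genes in all, against 4, 6 and 1143.

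The replicate numbers did not pair the wells (correlations of same-numbered arrays −0.040, 0.026, −0.016 and −0.018). With the replicate block 1026 genes were called, with 3 members higher and 6 lower: LINC00205 (adjusted p = 0.0579) and LINC00623 (adjusted p = 0.0536) were lost and MIR100HG was gained (adjusted p = 0.0427). With array weights SNHG12 was gained (adjusted p = 0.0472). In all, 28 of the 170 values of called members lost their call (16.5%), and 4 of the 391 values of the others gained one. The number of arrays and the absence of signal levels limit what can be called: the distance from a change to an end of its 95% interval had a median of 0.16.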
